A study of Mus musculus with 20 samples.

Results

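The transcripts of 10 genes that write, copy, erase or protect DNA methylation were followed in single 8C mouse embryos with and without maternal G9a. The genes were taken by symbol (Dnmt1, Dnmt3a, Dnmt3b, Dnmt3l, Tet1, Tet2, Tet3, Uhrf1, Dppa3 and Zfp57), with earlier results of these data known. They make up 10 of the 34937 genes counted in every embryo. All 10 passed the filter on low counts, which left 11754 genes to be tested. The embryos, of mixed genetic background, were obtained at E2.5 from natural matings and only those of normal morphology were used. The 9 Ehmt2Cntr embryos had Ehmt2F/+ mothers, whereas those of the 10 Ehmt2Mat embryos were Ehmt2F/-. All mothers carried Zp3-Cre, a transgene active in growing oocytes that deletes the floxed Ehmt2 allele there, and the fathers were Ehmt2+/-. The control embryos therefore also derive from oocytes exposed to Cre, in which the floxed allele was deleted beside a wild-type allele. By zygotic genotype, the controls comprised 6 +/+ and 3 +/- embryos, and Ehmt2Mat comprised 5 -/- (Ehmt2M/Z) and 5 +/- (Ehmt2M/+). Control embryo 4 was not analysed here. The paper reports a mild developmental delay of maternally depleted embryos at E2.5, although the sequenced groups could not be told apart by morphology. The part of such a delay in the results was not tested. The labels name no mother or litter, so p-values measure the spread between these embryos, and an effect of the mother or litter cannot be told apart from that of maternal genotype.

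G9a, encoded by Ehmt2, dimethylates lysine 9 of histone H3. In mammals, methyl groups are placed on cytosine in CpG dinucleotides by the de novo methyltransferases DNMT3A and DNMT3B, with DNMT3L as a catalytically inactive partner, and are copied at replication by DNMT1, which UHRF1 brings to hemimethylated sites. TET dioxygenases oxidise 5-methylcytosine to 5-hydroxymethylcytosine and beyond. Between fertilisation and the blastocyst most of the methylation of the gametes is lost, while DPPA3 (also called Stella), a maternal protein, and the zinc-finger protein ZFP57 guard part of it, the latter at imprinted regions.

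Among the 10 genes, Tet1 and Dnmt3b were downregulated and Zfp57 was upregulated in Ehmt2Mat embryos, each with a change of about 1 on the log2 scale. The 3 calls differed in how firmly they held. Tet1 remained past the threshold when any embryo was left out, whereas the calls of Dnmt3b and Zfp57 depended on single embryos. None of the 3 was called in the fits that took zygotic genotype into account, in which hardly any gene was. The annotated promoters of the 3 genes show how they differ in CpG, the dinucleotide that the DNMT enzymes methylate. Each line gives the 250 bases upstream of a RefSeq transcription start (GRCm38.p6), 5′ to 3′ on the strand of the gene, with CpG in capitals. The Tet1 stretch lies at chr10:62887325-62887574 on the minus strand, that of Dnmt3b at chr2:153649199-153649448 on the plus strand and that of Zfp57 at chr17:37000913-37001162 on the plus strand.
Tet1: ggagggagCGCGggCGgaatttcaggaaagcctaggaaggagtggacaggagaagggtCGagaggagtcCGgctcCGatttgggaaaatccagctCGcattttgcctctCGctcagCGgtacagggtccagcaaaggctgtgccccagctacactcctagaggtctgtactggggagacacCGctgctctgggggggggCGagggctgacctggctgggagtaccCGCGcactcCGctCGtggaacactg
Dnmt3b: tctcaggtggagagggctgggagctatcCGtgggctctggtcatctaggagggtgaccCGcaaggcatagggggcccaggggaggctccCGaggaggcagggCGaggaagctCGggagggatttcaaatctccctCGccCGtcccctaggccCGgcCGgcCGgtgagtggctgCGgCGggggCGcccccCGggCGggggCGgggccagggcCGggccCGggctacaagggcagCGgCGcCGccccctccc
Zfp57: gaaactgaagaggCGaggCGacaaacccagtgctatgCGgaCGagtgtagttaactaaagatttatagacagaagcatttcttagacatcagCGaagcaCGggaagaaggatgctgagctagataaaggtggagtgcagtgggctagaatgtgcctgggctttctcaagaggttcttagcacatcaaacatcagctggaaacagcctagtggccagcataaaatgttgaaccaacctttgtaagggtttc

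These stretches hold 15 CpG in Tet1, 21 in Dnmt3b and 6 in Zfp57. In the full window of 300 bases, reaching 50 bases past the start, Tet1 had 17 CpG and Dnmt3b had 30, and the 3 annotated Zfp57 promoters had 4, 6 and 9. The median over 32851 RefSeq promoters was 7 CpG, with quartiles of 3 and 20. The Zfp57 promoter shown is the one at the 5′ end of the gene in the count files. The Tet1 start used by RefSeq lies inside the Ensembl gene, whose 5′ end is further upstream. Of the 10 genes, 9 matched the promoter table with 18 promoters, and their CpG number ran from 2 in a Dnmt1 promoter to 57 in the Tet2 promoter. The letters TGCCGC, the core that ZFP57 recognises, were searched on both strands. They occurred in 3 of the 18 promoters (a pair in Dnmt3a and that of Tet3) and in 11.6% of all promoters. The windows of the Dnmt3a pair overlap (chr12:3806730-3807029 and chr12:3806910-3807209), so both may hold the same site. Methylation itself was not measured in these embryos, and the promoters are shown as annotation only.

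Total counts ran from 12985149 to 30053248 per embryo in controls and from 8231646 to 30602434 in Ehmt2Mat, so that 3 counts in an embryo were worth 0.0911 to 0.363 CPM (counts scaled to a library of a fixed size). The share of mitochondrial counts overlapped between the groups, at 6.47 to 20.4% in controls and 8.03 to 21.7% in Ehmt2Mat. The number of genes with at least 3 counts moved with the groups, at a median of 12047 in controls (11180 to 15418) and 13514.5 in Ehmt2Mat (11698 to 15401). Control 10 had 15418 and no other control more than 12296, a number exceeded by 8 of 10 Ehmt2Mat embryos. On the first principal component of log2 CPM, control 10 (at 26.0) lay within the range of the Ehmt2Mat embryos (-3.03 to 133), whereas no other control was above -49.6. Ehmt2Mat embryo 3, which had the lowest total count, was at 133. Ehmt2 transcripts were still counted in both groups, at 141 ± 59.7 CPM in controls (SD, n = 9) and 102 ± 32.7 in Ehmt2Mat (SD, n = 10), with a log2 fold change of -0.47 and an adjusted p = 0.233 by edgeR's quasi-likelihood test with Benjamini-Hochberg adjustment over all genes tested. Counts over the whole gene do not separate reads of the deleted part from the rest, so this value does not test the deletion. Ehmt1, which encodes the partner GLP, had a log2 fold change of 0.00 (adjusted p = 0.998). Of 7 tested 8-cell markers, Tead4 and Tfap2c were upregulated and Klf5 and Gata6 downregulated, where 9.35% of all genes tested were called in either direction. The summed level of all 8 markers was 1066 to 2148 CPM in controls and 917 to 1885 CPM in Ehmt2Mat. The 8 oocyte and polar body markers summed to 46.9 to 305 CPM in controls and 117 to 381 CPM in Ehmt2Mat, with Oosp1 upregulated among 7 tested (4.37% of all genes tested were higher). The 6 transcripts typical of the 2-cell stage summed to 0.633 to 13.1 CPM in controls and 3.69 to 19.3 CPM in Ehmt2Mat, and the only 1 of them tested, Tdpoz4, was not called. The 8 cumulus and granulosa markers summed to 23.2 to 110 CPM in controls and 42.1 to 167 CPM in Ehmt2Mat, most of it from Amhr2, while Amh and Has2 were at 0 in every embryo. Of 5 sperm markers, Tnp1, Tnp2 and Odf1 were at 0 throughout, and the sum reached at most 0.769 CPM in controls and 1.23 CPM in Ehmt2Mat. The part of these differences in the results that follow was not tested.

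In control embryos the 10 genes spanned a wide range of levels. RPKM (CPM divided by the exon length in kilobases) were used to compare genes, with the caveat that the amplified cDNA was biased towards the 3′ end of transcripts. Dppa3 stood far above the rest with a median of 1978 RPKM in controls. Tet1 followed at 14.1, Dnmt3b at 9.21, Dnmt3l at 8.44, Dnmt1 at 5.93, Dnmt3a at 3.94, Zfp57 at 3.54 and Uhrf1 at 1.11 RPKM. Tet2 and Tet3 were lowest, at 0.192 and 0.109 RPKM. Only the steps from Dppa3 to Tet1 and from Zfp57 to Uhrf1 had the same order in all 9 controls. Other neighbours changed places between embryos, and Dnmt3a was above Zfp57 in 3 of 9. By CPM, which is not corrected for length, Dnmt3a ranked 3 and Dnmt3l 6 in controls. In Ehmt2Mat embryos Dppa3 was again first, at a median of 2703 RPKM. Zfp57 came next at 8.75 RPKM, followed by Dnmt1 at 5.99, Tet1 at 5.97, Dnmt3b at 5.19 and Dnmt3l at 5.02. Dnmt3a was lower at 2.23 RPKM, below Dnmt3l and Dnmt3b in 10 of 10 and below Tet1 in 9 of 10 Ehmt2Mat embryos. Zfp57 was above Dnmt1 in 8 of 10 Ehmt2Mat embryos, Dnmt1 above Tet1 in 6 of 10, Tet1 above Dnmt3b in 6 of 10 and Dnmt3b above Dnmt3l in 5 of 10, so Dnmt1, Tet1, Dnmt3b and Dnmt3l did not keep their order between embryos.

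**Figure D1:**
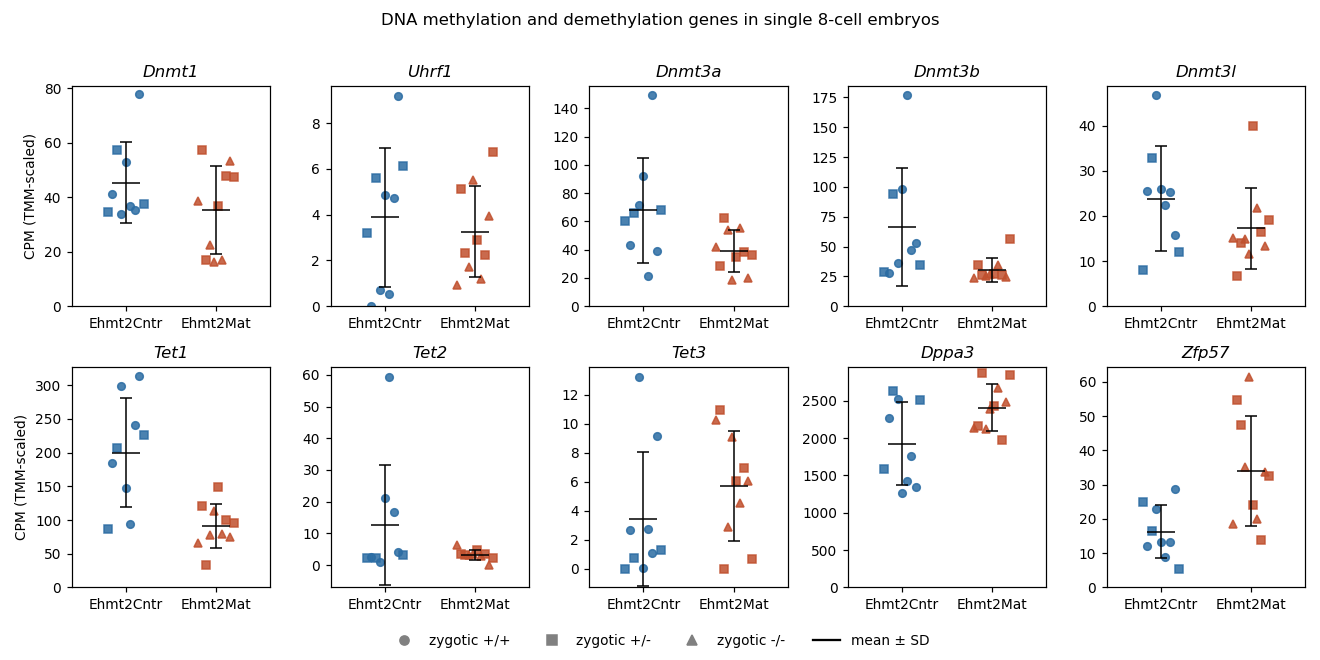
CPM (TMM-scaled, linear axes) of the 10 genes in each of 9 Ehmt2Cntr and 10 Ehmt2Mat embryos, with the mean ± SD in black and the zygotic genotype as the symbol. For Tet1, 5 Ehmt2Mat embryos lie below every control, and for Zfp57, 6 lie above every control. In Dnmt3b and Tet2 a few controls stand well above the others.

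The main comparison set all Ehmt2Mat embryos against all controls, to ask whether loss of maternal G9a goes with other levels of these transcripts at 8C. Across all genes tested 9.35% were called at an adjusted p of 0.05, with 4.37% higher and 4.98% lower in Ehmt2Mat. Of the 10 genes, 1 was higher and 2 were lower. The median log2 fold change was -0.41 over the 10 genes and -0.04 over all genes tested. In whole-embryo libraries, fewer cells expressing a gene and less RNA per cell cannot be told apart.

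The TET genes, which encode the enzymes that oxidise 5-methylcytosine, were dominated by Tet1 (chr10:62804570-62899118, minus strand, GRCm38). Its level was 86.1, 207 and 313 CPM (lowest, median and highest) in controls and 33.0, 87.9 and 149 CPM in Ehmt2Mat. All 10 Ehmt2Mat embryos were below the control median, 5 were below every control and 6 controls were above every Ehmt2Mat embryo, although controls 1, 6 and 7 fell among the Ehmt2Mat values. Tet1 was downregulated, with means of 200 ± 80.8 CPM in controls and 91.1 ± 32.4 CPM in Ehmt2Mat (SD, n = 9 and 10) and a log2 fold change of -1.13 (SE 0.26, 95% interval -1.67 to -0.60, edgeR adjusted p = 0.0073). The call held whichever of the 19 embryos was left out, with log2 fold changes of -1.25 to -1.03 and adjusted p of 0.00375 to 0.0174. Without control 10 the log2 fold change was -1.11, and without Ehmt2Mat embryo 3 it was -1.04.

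Tet2 was low in most embryos, at 1.08, 3.24 and 59.2 CPM in controls and 0.132, 3.37 and 6.30 CPM in Ehmt2Mat. Controls 6, 7 and 8 were high (21.2, 59.2 and 16.7 CPM), and the other 6 controls lay within the Ehmt2Mat range. Its log2 fold change of -1.92 (SE 0.71, interval -3.38 to -0.46) had an adjusted p = 0.0875 by edgeR and was not called. Without control 7 it was -1.02 (adjusted p = 0.409). DESeq2 called it, with an adjusted p = 0.0313.

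Tet3, the TET enzyme known for its oocyte supply and its action in the zygote, was at 0, 1.30 and 13.2 CPM in controls and 0, 6.05 and 11.0 CPM in Ehmt2Mat. The groups overlapped over nearly the whole range, with 1 embryo of each group at 0. Its log2 fold change was 0.74 with a wide interval of -1.15 to 2.62 (edgeR adjusted p = 0.694). Summed over the 3 TET genes, the level was 14.6 ± 5.29 RPKM in controls and 6.86 ± 2.38 RPKM in Ehmt2Mat (SD, n = 9 and 10). Tet1 made up a median of 95.5% of that sum in controls (63.1 to 98.6%) and 90.9% in Ehmt2Mat (78.5 to 97.2%). The lowest share belonged to control 7, where Tet2 supplied 34.7%.

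**Figure D2:**
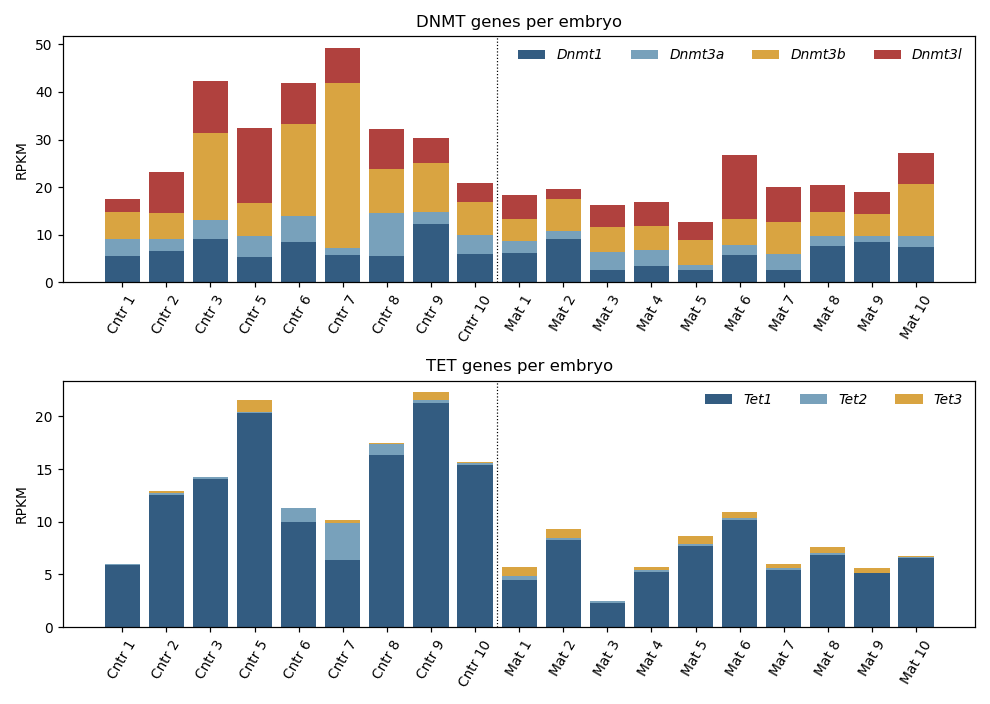
Stacked RPKM of the 4 DNMT genes (upper) and the 3 TET genes (lower) in each embryo, with a dotted line between Ehmt2Cntr and Ehmt2Mat. The TET bars consist mostly of Tet1 and sum to 5.99 to 22.3 RPKM in controls and 2.43 to 10.9 RPKM in Ehmt2Mat; no error bars are drawn because each bar is an embryo.

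Among the de novo methyltransferases, Dnmt3b (chr2:153649450-153687730, plus strand) was at 27.8, 47.0 and 177 CPM in controls and 23.4, 26.5 and 56.1 CPM in Ehmt2Mat. Of the Ehmt2Mat embryos, 7 lay below every control in a narrow band, while embryo 10 was highest, and controls 3, 6 and 7 (93.8, 98.4 and 177 CPM) lay above every Ehmt2Mat embryo. Dnmt3b was downregulated, with means of 66.3 ± 49.2 CPM in controls and 30.4 ± 9.79 CPM in Ehmt2Mat (SD, n = 9 and 10) and a log2 fold change of -1.12 (SE 0.32, interval -1.79 to -0.46, edgeR adjusted p = 0.0287). The call was lost without control 3, 6 or 7, with adjusted p of 0.0525, 0.0562 and 0.0907, and without control 7 the log2 fold change was -0.79. It remained without control 10 (-1.21) and without Ehmt2Mat embryo 3 (-1.11). Of the 50-base windows of its exons, 9.81% also occur in the paralogue Dnmt3c, so some of its reads may come from that gene.

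Dnmt3a, which encodes the other de novo enzyme, was at 21.3, 65.6 and 150 CPM in controls and 18.6, 37.2 and 62.3 CPM in Ehmt2Mat. All 10 Ehmt2Mat embryos were below the control median, but only 2 were below the lowest control. The log2 fold change of -0.80 (SE 0.30, interval -1.43 to -0.18) did not pass the test (edgeR adjusted p = 0.0975). Without control 7, the lowest control, the adjusted p was 0.0463. Its exons share 133 bases with the antisense gene Dnmt3aos, and reads of the pair cannot be told apart without strand.

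Dnmt3l, the inactive partner, was at 8.11, 25.2 and 46.8 CPM in controls and 6.65, 15.0 and 39.9 CPM in Ehmt2Mat. Although 9 of 10 Ehmt2Mat embryos were below the control median, the ranges overlapped almost fully. Its log2 fold change was -0.46 (interval -1.17 to 0.25, edgeR adjusted p = 0.465). With Dnmt1 included, the 4 DNMT genes summed to 32.2 ± 10.7 RPKM in controls and 19.7 ± 4.40 RPKM in Ehmt2Mat (SD, n = 9 and 10), and Dnmt3b made up a median of 32.8% of the sum in controls and 30.8% in Ehmt2Mat.

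The genes for copying methylation gave no call. Dnmt1, the maintenance enzyme, was at 33.9, 37.4 and 77.9 CPM in controls and 16.0, 37.8 and 57.3 CPM in Ehmt2Mat. The medians were close, and 4 Ehmt2Mat embryos (3, 4, 5 and 7) lay below every control. The log2 fold change was -0.36 (SE 0.28, interval -0.94 to 0.23, edgeR adjusted p = 0.498). Uhrf1, its recruiting partner, was low in both groups, at 0, 4.74 and 9.17 CPM in controls and 0.927, 2.60 and 6.73 CPM in Ehmt2Mat. The ranges overlapped, and the interval of its log2 fold change of -0.26 was wide (-1.80 to 1.29, edgeR adjusted p = 0.889). Of its 50-base windows 15.4% also occur in the genes Gm5648 and Gm15953.

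Of the protector genes, Zfp57 was called and Dppa3 was not. Zfp57 (chr17:37001163-37010635, plus strand), whose product binds methylated imprinting control regions, was at 5.44, 13.4 and 28.9 CPM in controls and 13.8, 33.1 and 61.6 CPM in Ehmt2Mat. All 10 Ehmt2Mat embryos were above the control median, 6 were above every control and 5 controls were below every Ehmt2Mat embryo. Zfp57 was upregulated, with means of 16.3 ± 7.79 CPM in controls and 34.1 ± 16.0 CPM in Ehmt2Mat (SD, n = 9 and 10) and a log2 fold change of 1.07 (SE 0.34, interval 0.36 to 1.78). Its edgeR adjusted p = 0.0497 was just inside the threshold and remained inside it in only 6 of 19 fits without an embryo, in which it ran from 0.0297 to 0.101 while the log2 fold change stayed between 0.93 and 1.22. Without control 10 the log2 fold change was 0.95 (adjusted p = 0.0695), and without Ehmt2Mat embryo 3 it was 1.00 (adjusted p = 0.0768). The embryos without which the call was lost were controls 2, 3, 5, 6, 7, 8 and 10 and Ehmt2Mat embryos 2, 3, 4, 5, 9 and 10. No 50-base window of Zfp57 was shared with another gene.

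Dppa3, the maternal factor that protects oocyte-derived methylation in the zygote, was at 1261, 1764 and 2623 CPM in controls and 1970, 2411 and 2872 CPM in Ehmt2Mat. All 10 Ehmt2Mat embryos were above the control median and 5 controls were below every Ehmt2Mat embryo, while 3 Ehmt2Mat embryos were above every control. The difference, from 1924 ± 557 to 2408 ± 314 CPM (SD, n = 9 and 10), was a log2 fold change of 0.32 (SE 0.16, interval -0.01 to 0.66) and did not pass the test (edgeR adjusted p = 0.229). Of its 50-base windows 16.5% also occur in Dppa3-ps, Gm15620 and Gm47576.

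**Figure D3:**
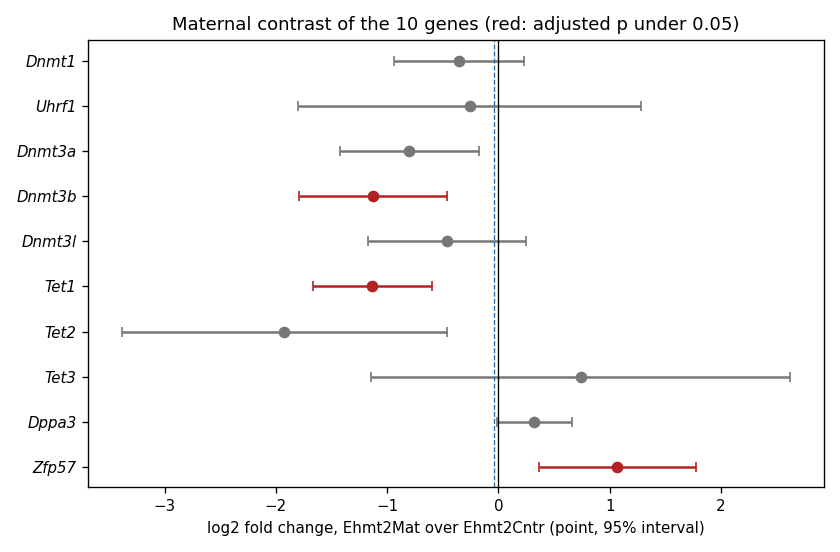
Log2 fold change of Ehmt2Mat over Ehmt2Cntr for the 10 genes, with 95% intervals derived from edgeR's test statistic, 9 and 10 embryos. Genes called are in red, the dashed line is the median of all genes tested (-0.04), and the intervals of Dnmt3a, Dnmt3b, Tet1, Tet2 and Zfp57 do not reach 0. The interval of Tet3 is the widest.

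**Figure D4:**
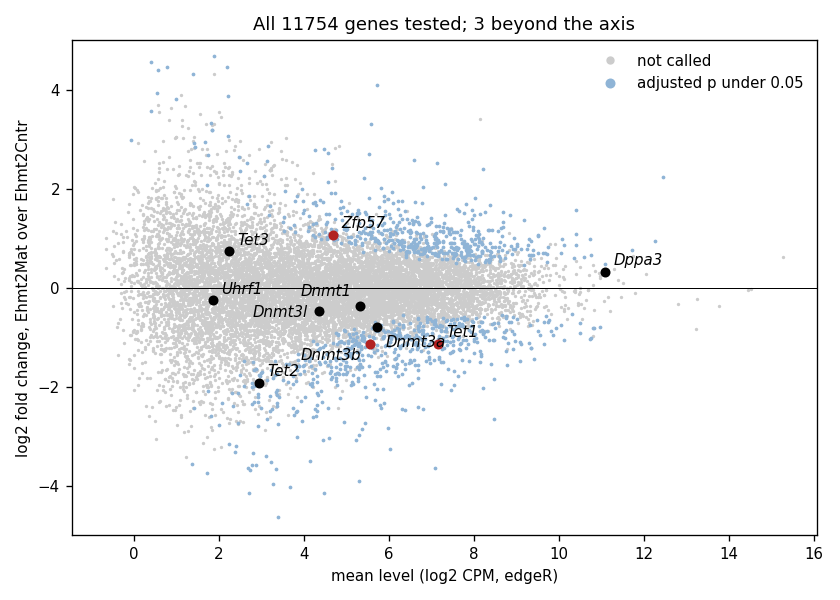
Log2 fold change against mean log2 CPM for the 11754 genes tested, 3 of which lie beyond the axis. The 10 genes are labelled. Tet1, Dnmt3b and Zfp57 (red) lie at -1.13, -1.12 and 1.07, and other genes of like level lie further from 0. Uhrf1, Tet3 and Tet2 lie in the wide, low part of the cloud and Dppa3 at its high end.

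The zygotic copy of Ehmt2 was compared within each maternal group in a model of 4 groups over all 19 embryos. No gene of the 11754 was called for -/- against +/- Ehmt2Mat embryos, for +/- against +/+ controls or for the difference between these effects, by edgeR with Benjamini-Hochberg adjustment (0% in each), while 187, 729 and 508 genes had an unadjusted p under 0.05. Of the 10 genes only Tet2 did, in controls, at 2.60 ± 0.560 CPM in +/- (SD, n = 3) and 17.5 ± 22.0 CPM in +/+ (SD, n = 6), with an adjusted p = 0.709. Controls 6, 7 and 8, which were high in Tet2, were all +/+. Tet1 was at 82.3 ± 18.1 CPM in -/- and 99.8 ± 42.8 CPM in +/- Ehmt2Mat embryos (SD, n = 5 each), and at 173 ± 75.8 in +/- (SD, n = 3) and 213 ± 86.6 in +/+ controls (SD, n = 6). Zfp57 was at 33.8 ± 17.3 CPM in -/- and 34.5 ± 16.7 CPM in +/- Ehmt2Mat embryos (SD, n = 5 each), and at 15.7 ± 9.85 in +/- (SD, n = 3) and 16.6 ± 7.62 in +/+ controls (SD, n = 6). Both maternal groups held +/- embryos, and among these alone (3 controls and 5 Ehmt2Mat) the log2 fold change was -0.82 for Tet1, -0.64 for Dnmt3b and 1.13 for Zfp57, none of them called, with 1 gene called in all. With the number of functional zygotic copies as a covariate, the values were -0.80, -0.65 and 1.13, again without a call, and 3 genes were called in all. Zygotic genotype and maternal genotype overlap only in the +/- embryos, which limits both fits.

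Variation between embryos that the maternal genotype does not account for was described by correlating log2 CPM after the mean of each maternal group had been subtracted, over 19 embryos that share their library for every gene. The highest value between any pair of the 10 genes was for Tet1 and Tet3 (Pearson 0.68, Spearman 0.53), followed by Dnmt3b and Tet2 (0.55 and 0.44), a pair in which control 7 was highest for both. Tet3 was low, with 0 counts in control 1 and Ehmt2Mat embryo 3. These embryos also had the lowest Tet1 of their groups (86.1 and 33.0 CPM). Tet1 and Dnmt3b, the pair that was downregulated, had a Pearson correlation of -0.14, and Tet1 and Zfp57 of 0.04. For the 7 genes with a mean of at least 10 CPM, the most alike of 7490 genes were also found. These were Sgpp1 (0.86) and Patl1 (0.82) for Tet1, Cers6 (0.84) and Poldip2 (0.79) for Dnmt3b, and Atg12 (0.77) and Riox2 (0.76) for Zfp57. For Dppa3 they were Rpl41 (0.84) and 1110008P14Rik (0.80), for Dnmt3l Tdrd9 (0.86) and Ciao2a (0.81), for Dnmt1 Rcor1 (0.85) and Vps26a (0.80) and for Dnmt3a Msmo1 (0.76) and Wwc2 (0.73). All of these genes were picked as the highest among 7490 over only 19 embryos. The value that such a choice gives by itself was not tested. The correlation of log2 CPM with the log2 total count was 0.35 for Tet1, -0.22 for Dnmt3b and -0.40 for Zfp57, and that with the number of genes detected was 0.28, -0.19 and -0.37.

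The partners of these proteins were taken from lists of 63 genes in the count data, of which 54 were tested. None was higher and 3 were lower in Ehmt2Mat, where 4.37% of all genes tested were higher and 4.98% lower. A share of 3 in 54 is near that of lower genes in general. The median log2 fold change was -0.12, beside -0.04 over all genes. Mbd3, which encodes a subunit of the NuRD complex, was at 130, 202 and 296 CPM in controls and 81.5, 118 and 164 CPM in Ehmt2Mat, with 8 Ehmt2Mat embryos below every control. Its log2 fold change was -0.88 (SE 0.18, edgeR adjusted p = 0.0029). Lig3, a ligase of base excision repair, was at 174, 264 and 411 CPM in controls and 103, 183 and 220 CPM in Ehmt2Mat, and 5 Ehmt2Mat embryos lay below every control (log2 fold change -0.65, SE 0.18, edgeR adjusted p = 0.0252). Mbd1, encoding a methyl-CpG binding protein, was low at 1.54, 7.47 and 29.8 CPM in controls and 0, 2.91 and 4.96 CPM in Ehmt2Mat (log2 fold change -2.30, SE 0.70, edgeR adjusted p = 0.0391).

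**Figure D5:**
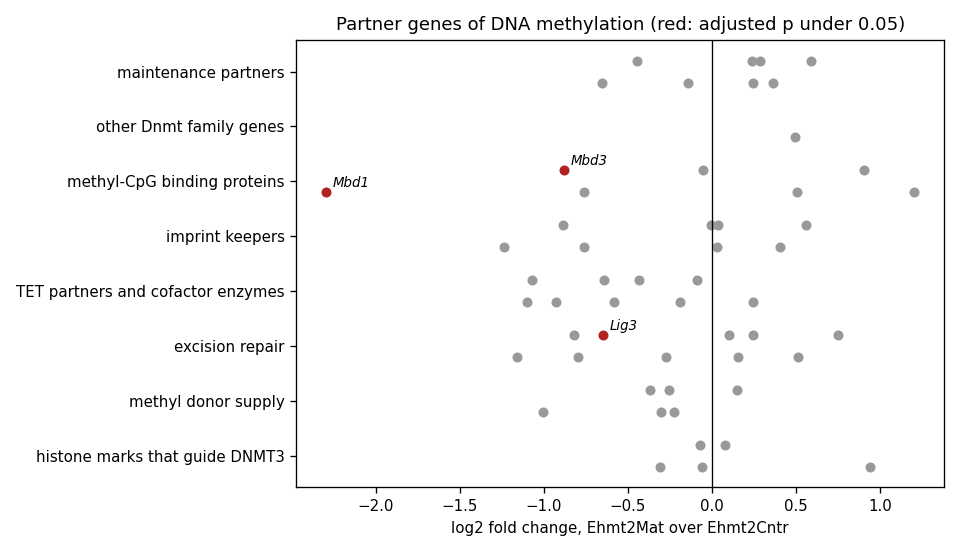
Log2 fold change of each tested partner gene by list, with called genes in red and named. The called genes, Mbd1, Mbd3 and Lig3, lie between -2.30 and -0.65, and the other genes lie on both sides of 0.

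By list, 2 of 7 tested genes of the methyl-CpG binding list (Mbd1 and Mbd3) and 1 of 10 excision repair genes (Lig3) were lower, beside 4.98% of all genes tested. A place in the methyl-CpG binding list does not mean that the product binds methylated CpG, which was not examined. None was called among 8 maintenance partners (median log2 fold change 0.24), 8 imprint keepers (0.01), 9 TET partners and cofactor enzymes (-0.58), 6 genes of methyl donor supply (-0.28), 5 genes for histone marks that guide DNMT3 proteins (-0.06) and the other family gene Trdmt1 (0.49). Trim28, whose product is recruited by ZFP57, was at 641 ± 151 CPM in controls and 657 ± 115 CPM in Ehmt2Mat (SD, n = 9 and 10; log2 fold change 0.04, interval -0.28 to 0.36, edgeR adjusted p = 0.924). The 4 partner genes with an edgeR adjusted p between 0.05 and 0.1 went in both directions. Mbd5, of the methyl-CpG binding list, had a log2 fold change of 1.20 (adjusted p = 0.0743), with all 10 Ehmt2Mat embryos above the control median and 7 controls below every Ehmt2Mat embryo. Log2 fold changes were negative for Atrx, a chromatin remodeller (-0.89, adjusted p = 0.0540), Ddb1, an adaptor of CUL4 ubiquitin ligases (-0.58, adjusted p = 0.0585), and Ogt, which encodes a glycosyltransferase that binds TET proteins (-1.10, adjusted p = 0.0701). Tdg, encoding the glycosylase that removes oxidised methylcytosine, averaged 0.105 CPM in controls and 0.177 CPM in Ehmt2Mat and was too low to be tested.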

How the data were processed

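RNA of 19 single 8C embryos was amplified with a 3′-biased protocol and sequenced as single-end reads of 50 bases. The authors deposited raw counts per gene, without normalization. Per the file headers, they were made with featureCounts 1.5.0-p1 on exons of Ensembl release 82 (GRCm38), with an overlap of at least 10 bases, each read counted for every gene it overlapped, multi-mapping reads kept and no strand setting. The aligner of these files is not given in the sources used here. Whether multi-mapping reads had already been removed at alignment is therefore not known, and reads of shared windows may be missing instead of misassigned. The labels name a HiSeq1500, and the methods a HiSeq4000.

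Embryos were grouped by the sample labels. In R 4.3.3 with edgeR 4.0.16, filterByExpr by maternal group, TMM scaling and the quasi-likelihood test were applied to all genes; p-values were adjusted after Benjamini-Hochberg and called at 0.05. CPM use TMM-scaled library sizes, and RPKM the exon lengths in the files. Log2 CPM for correlations had a prior count of 2. The scripts were tested on simulated data. No embryos were near-duplicates. The 10 genes and the partner and marker lists were chosen with earlier results of these data known. Named genes were these 10, Ehmt2, Ehmt1, called list genes and the 2 most alike genes among those with at least 10 CPM; Trim28, Mbd5, Ogt, Atrx, Ddb1, Tdg and marker genes were named after their values were seen. Alternatives were RLE and upper-quartile scaling, DESeq2 1.42.0, other filters on low counts, a replicate block, zygotic copies as a covariate, +/- embryos only, separate fits within maternal groups and each embryo left out. Of the count files' identifiers, 34599 matched a symbol. Promoters were copied from RefSeq, and no protein sequence was used. Intervals are 95%, for the log2 fold change between the groups, and were derived from edgeR's test statistic. Their width reflects the spread between these embryos, but they are not ranges of single embryos. Total counts of 8231646 to 30602434 per embryo limit the precision for low genes.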

Additional observations from a re-analysis of the deposited data

Results flagged for a closer look

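Of 24 sets of values (10 genes with Ehmt2 and Ehmt1, in each maternal group), 4 held an embryo far from the others by Dixon's criterion. Chance meets it in about 1 of 20 sets of normally distributed values. The criterion was applied to CPM on a linear scale, where this rate need not hold, and all 4 embryos were the highest of their set. Control 7 was highest for Dnmt3b at 177 CPM, with the next control at 98.4 CPM. The same embryo was highest for Tet2 at 59.2 CPM, with the next at 21.2 CPM. Ehmt2Mat embryo 10 had 56.1 CPM of Dnmt3b, with the next at 34.2 CPM, and Ehmt2Mat embryo 6 had 39.9 CPM of Dnmt3l, with the next at 21.9 CPM.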

How the results depend on the processing

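The log2 fold changes of Tet1, Dnmt3b, Dnmt3a, Dnmt1, Tet3, Dppa3 and Zfp57 kept their direction under every alternative run. Their size did not always hold. Dnmt1 went from -0.36 in the reported fit to -0.013 with the covariate and -0.083 in +/- embryos. Dppa3 went from 0.32 to 0.19 and 0.11 in the same fits. RLE and upper-quartile scaling gave 1110 and 1100 called genes and the same 3 of the 10 genes. DESeq2 called 2068 genes (1084 higher, 984 lower), Tet2 in addition, and 10 partner genes (4 higher, 6 lower). Without a filter on low counts 1201 genes were called, 54.8% of them higher, beside 46.8% in the reported fit; 0 of the 10 genes was then called higher (Zfp57, adjusted p = 0.0535) and 1 partner gene was. With at least 10 counts in every embryo 6 partner genes were called (1 higher, 5 lower). With zygotic copies as a covariate 3 genes were called (0 higher, 3 lower), and in +/- embryos 1 (0 higher, 1 lower), with 0 of the 10 genes and 0 partner genes in either. Directions reversed for Dnmt3l (0.0826 with the covariate, 0.11 in +/- embryos), Tet2 (0.38 in +/- embryos) and Uhrf1 (0.0829 with the block). The cause was not tested.

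A replicate block on embryo number gave 709 calls (363 higher, 346 lower), with 1 of the 10 genes, Tet1, called lower and 0 higher. No sign of pairing by embryo number was seen. Correlations of deviations within the 9 pairs ran from -0.16 to 0.09, and none of the embryos was most like its own number. These values cannot show how the embryos were numbered or collected.

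Leaving out each embryo gave 884 to 1262 calls (404 to 595 higher, 468 to 685 lower), with 1 to 3 of the 10 genes (0 to 1 higher, 1 to 2 lower) and 1 to 4 partner genes (0 to 1 higher, 1 to 4 lower; 1 without control 7). For Uhrf1 the log2 fold change ran from -0.45 to 0.0066. The zygotic contrasts of controls gave 0 to 1 calls (0 to 1 higher, 0 to 1 lower), without control 5 or 10, and their log2 fold changes ran from -0.38 to 0.11 for Dnmt1, -0.30 to 0.27 for Dnmt3a, -0.54 to 0.0202 for Tet1 and -0.60 to 0.33 for Zfp57. Within Ehmt2Mat they ran from -0.26 to 0.15 for Dnmt3a, -0.56 to 0.11 for Dnmt3l, -0.54 to 0.19 for Tet2, -0.12 to 0.00786 for Dppa3 and -0.36 to 0.17 for Zfp57. The difference of both effects ran from -0.34 to 0.26 for Dnmt3a, -0.34 to 0.84 for Dnmt3b, -0.0750 to 1.09 for Dnmt3l, -0.32 to 0.26 for Tet1 and -0.36 to 0.54 for Zfp57. The intervals of Uhrf1 (-1.80 to 1.29) and Tet3 (-1.15 to 2.62), both low in counts, were wide and held 0, so the direction of a difference was not resolved. That of Tet2 (-3.38 to -0.46) was also wide but did not reach 0, and its call depended on the method.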
